A study of Homo sapiens with 12 samples.

Results

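Collagens, fibronectin and the enzymes that modify and crosslink collagen were followed in 12 RNA-seq libraries of DU145, an established androgen-independent human prostate cancer cell line. The members were the 44 protein-coding genes of the count table named as collagen chains, together with 20 further genes. These were fibronectin (FN1), the lysyl oxidases (LOX and LOXL1 to LOXL4), the prolyl 4-hydroxylase alpha subunits (P4HA1 to P4HA3), the lysyl hydroxylases (PLOD1 to PLOD3), THBS1, THBS2, FBN1, FBN2, TNC, SPARC, POSTN and TGFBI. These 64 genes were chosen by name from the 28747 gene identifiers of the table. Each of 4 groups held 3 libraries: adherent (adh) shCtrl, adherent shSigma, tumor sphere (TS) shCtrl and tumor sphere shSigma. The shSigma cells carried the lentiviral short hairpin RNA of that name, and the shCtrl cells a control hairpin, and all cells had been selected with puromycin. Adherent cells were the bulk culture, while tumor spheres grew at low density on non-adherent plates in serum-free medium with B-27, insulin, FGF2 and EGF, a culture that selects for stem-like cells. The comparison of hairpins therefore rests on 1 selected line against 1 control line, and the sequenced hairpin was not named in the sources used here. The replicates were described as independent, but the labels do not say whether they were separate infections, so the p-values measure the spread between these cultures only.

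The extracellular matrix is built from fibrillar collagens that resist tension, type IV collagen networks that form the scaffold of basement membranes, and adhesive glycoproteins such as fibronectin that bind cells through integrins. Collagen chains are hydroxylated on proline and lysine in the endoplasmic reticulum, fold as trimers of specific partner chains, and are crosslinked outside the cell by lysyl oxidases. Epithelial and carcinoma cells mainly make basement membrane collagens, whereas fibroblasts are the main source of fibrillar collagen in prostate tissue.

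Library totals ranged from 16472722 to 26957777 counts, and the 64 members took 0.216% to 0.281% of them. Levels are given as CPM, counts scaled to a common library size. The epithelial keratins KRT8, KRT18 and KRT19 had group means from 92.7 to 501 CPM. EPCAM, another epithelial marker, had means of 235 and 30.9 CPM in adherent shCtrl and shSigma cells and of 613 and 61.9 CPM in the tumor spheres. CDH1, the gene of E-cadherin, had means of 26.8 and 12 CPM in the adherent groups and of 726 and 27.8 CPM in the tumor spheres. The part of these epithelial changes in the matrix results was not tested. The 6 fibroblast markers (PDGFRA, PDGFRB, DCN, LUM, THY1 and FAP) summed to 0.406 to 0.583 CPM per group, with LUM and THY1 at 0 counts in all 12 libraries. The endothelial list summed to at most 1.01 CPM and the leukocyte list to at most 1.06 CPM, so that the defining markers of other cell types were at or near 0. One technical property touches many members. Within adherent culture, libraries of the same group deviated from their mean with the GC content of the transcripts. The r across 14060 genes lay between -0.684 and 0.718 in shCtrl and between -0.686 and 0.629 in shSigma libraries. The trend was weaker in tumor spheres, with r between -0.424 and 0.275 in shCtrl and between -0.385 and 0.335 in shSigma libraries. The 44 members kept over the 12 libraries had a median GC content of 53.6% against 47.9% for all genes. Genes are not independent replicates, and these r values describe the libraries. A GC-dependent offset for each library was therefore fitted as an alternative, chosen after seeing the data, and its value is given beside a result where it changes the call or moves the value by over 1.5 times.

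Most members were expressed at a testable level, and knockdown moved them in both directions. In adherent cells 43 members could be tested, of which 12 were higher and 16 lower in shSigma cells at an adjusted p under 0.05. That is 65.1% of the tested members, beside 50.0% of all 13764 genes tested (22.3% higher and 27.7% lower). In tumor spheres 43 members were tested, of which 12 were higher and 22 lower. That is 79.1% of them, beside 61.1% of all 13774 genes (30.2% higher and 30.9% lower). With a log2 fold change beyond 1 in either direction as a further condition, 19 of the 43 members were called in adherent cells, 6 higher and 13 lower, beside 13.7% of all genes (7.59% higher and 6.13% lower). In tumor spheres 18 of the 43 met it, 7 higher and 11 lower, beside 13.1% (5.94% higher and 7.17% lower). The median log2 fold change of the tested members was -0.054 in adherent cells and -0.40 in tumor spheres, beside -0.014 and 0.0015 over all genes tested. A member tested only because of its level in one group had to differ, so these counts are descriptions. In such bulk samples, fewer cells of a type and less RNA per cell cannot be told apart. The remaining 20 members stayed under 1 CPM in all 4 group means: COL2A1, COL3A1, COL5A3, COL6A3, COL6A5, COL6A6, COL8A1, COL9A1, COL10A1, COL11A1, COL11A2, COL15A1, COL19A1, COL20A1, COL22A1, COL23A1, FBN2, POSTN, SPARC and THBS2. Their highest value in any library was 0.619 CPM, and COL6A5 and COL11A2 had no count in any library. COL6A3 passed the filter in adherent cells alone, without a call.

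**Figure D1:**
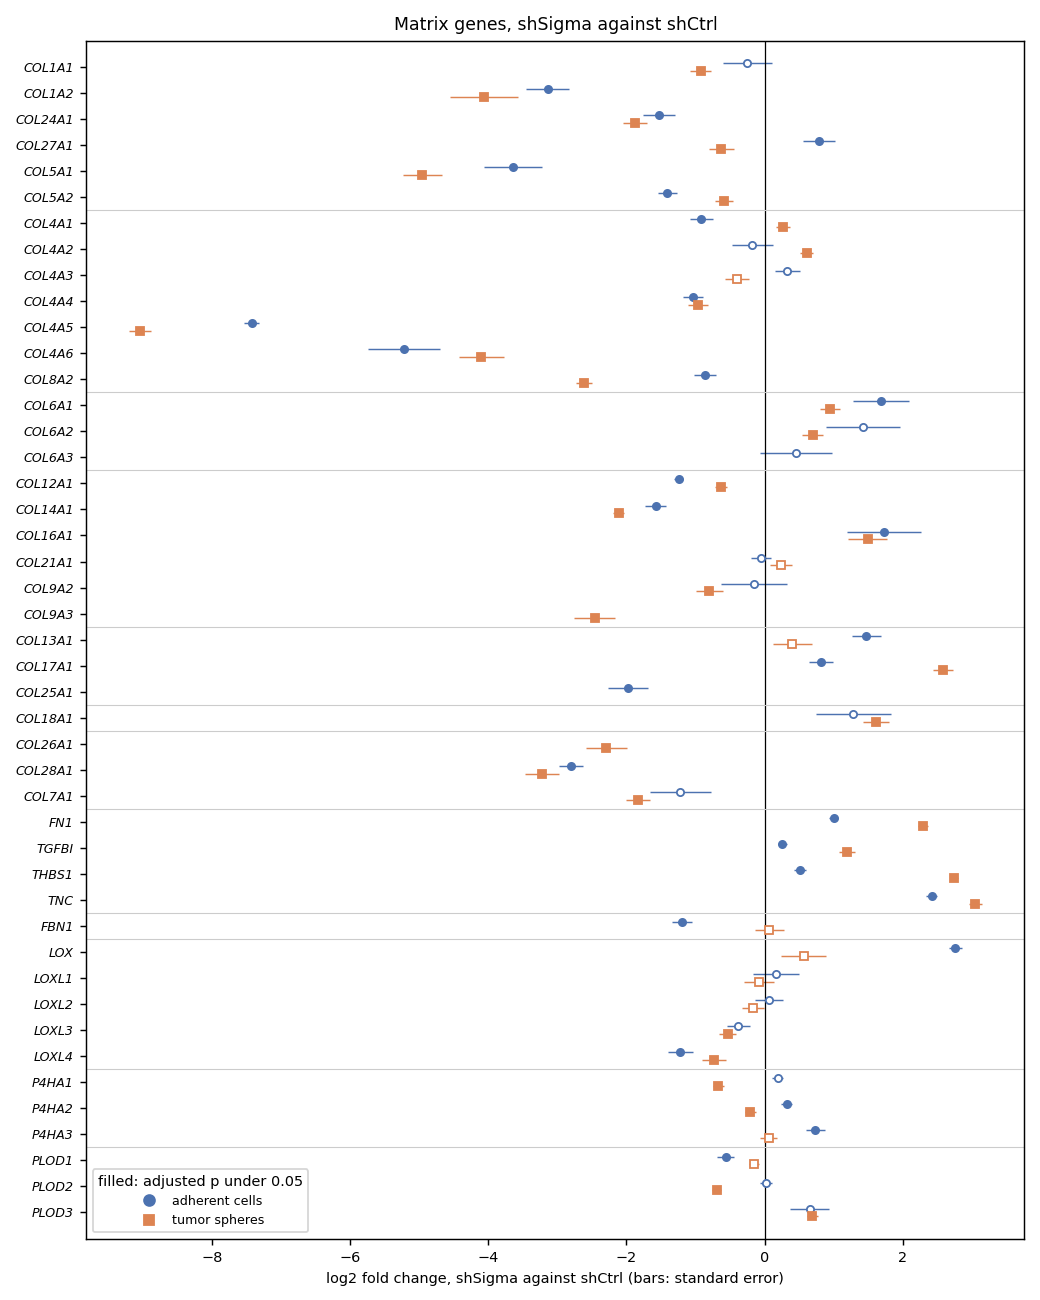
Log2 fold change of shSigma against shCtrl cells for each tested member, in adherent cells (circles) and tumor spheres (squares); bars are standard errors, filled symbols have an adjusted p under 0.05, and grey lines separate the roles. COL4A5 lies farthest to the left at -7.42 and -9.04, and TNC farthest to the right in tumor spheres at 3.05.

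The type IV collagens showed the largest single change. They are encoded in 3 head-to-head pairs that share the stretch between their starts, and the upstream bases are shown because the chains of a pair did not always move together. In the RefSeq promoter table (GRCh38.p14), 50 of the 64 members had an entry. Capitals mark matches on either strand to the CCAAT box (CCAAT), the GC box (GGGCGG), the TATA box (TATAA), the AP-1 motif (TGANTCA) and the cyclic AMP response element (TGACGTCA). Overlapping matches run together, and all stretches are written 5′ to 3′ on the strand of the gene. COL4A5 and COL4A6 start 379 bases apart on chromosome X, at chrX:108439588-108439837 (plus strand) and chrX:108439459-108439708 (minus strand) for the 250 bases shown, of which 121 are common to both.
COL4A5: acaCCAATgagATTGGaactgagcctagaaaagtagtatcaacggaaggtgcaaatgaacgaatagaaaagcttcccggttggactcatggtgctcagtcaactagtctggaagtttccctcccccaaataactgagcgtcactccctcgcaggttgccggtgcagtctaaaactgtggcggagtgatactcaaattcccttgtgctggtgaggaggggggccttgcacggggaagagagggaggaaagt
COL4A6: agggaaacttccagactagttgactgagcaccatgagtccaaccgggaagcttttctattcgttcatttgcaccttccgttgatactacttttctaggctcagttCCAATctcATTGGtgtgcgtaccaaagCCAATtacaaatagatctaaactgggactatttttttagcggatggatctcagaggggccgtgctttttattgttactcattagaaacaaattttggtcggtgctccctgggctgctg
The whole of the 126 bases between COL4A2 (plus strand) and COL4A1 (minus strand) lies at chr13:110307158-110307283.
COL4A2 to COL4A1: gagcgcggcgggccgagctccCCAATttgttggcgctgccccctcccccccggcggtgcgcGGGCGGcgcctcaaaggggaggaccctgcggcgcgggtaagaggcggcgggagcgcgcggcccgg
COL4A3 and COL4A4 start 418 bases apart on chromosome 2, and the 250 bases before COL4A3 lie at chr2:227164374-227164623 (plus strand).
COL4A3: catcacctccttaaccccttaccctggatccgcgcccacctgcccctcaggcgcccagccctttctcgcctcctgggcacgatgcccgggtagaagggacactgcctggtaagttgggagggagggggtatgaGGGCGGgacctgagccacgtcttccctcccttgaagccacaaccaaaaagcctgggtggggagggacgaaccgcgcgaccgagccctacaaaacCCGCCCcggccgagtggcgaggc
The stretch before COL4A5 held 8 CpG and 2 CCAAT matches, that before COL4A6 held 7 CpG and 3 CCAAT matches, and the 126 bases between COL4A2 and COL4A1 held 20 CpG, with a GC content of 80.2%. Over the 35116 promoters of the table, the median was 11 CpG in 250 bases, CCAAT was present in 32% and GGGCGG in 42.6%. A match is a description of the letters only.

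COL4A5, the alpha-5 chain of basement membrane collagen, was nearly absent after knockdown. It had 73, 78.8 and 76.1 CPM in adherent shCtrl cells and 114, 114 and 111 CPM in shCtrl tumor spheres. In shSigma cells it had 0.476, 0.410 and 0.482 CPM in adherent culture and 0.252, 0.318 and 0.0530 CPM in tumor spheres. The groups were far apart in every library, as 1902, 1864 and 1929 counts stood against 10, 8 and 10 in adherent cells. The log2 fold change was -7.42, SE 0.11, adjusted p = 1.19e-07 in adherent cells, a 172-fold lower level, and -9.04, SE 0.16, adjusted p = 4.54e-12 in tumor spheres. Its partner COL4A6 was much lower in level, with 2.80, 1.82 and 2.92 CPM in adherent shCtrl and 5.15, 5.96 and 4.38 CPM in shCtrl tumor spheres. It had 0, 1 and 3 counts in the adherent shSigma libraries and 3, 3 and 11 in the shSigma tumor spheres, so that this pair fell together. The log2 fold changes of COL4A6, -5.22, SE 0.52, adjusted p = 0.000173 in adherent cells and -4.10, SE 0.32, adjusted p = 6.62e-07 in tumor spheres, rest on few counts in the lower group. They moved by over 1.5 times when 1 library was left out. The adherent value was -4.59, adjusted p = 0.000495 without shSigma replicate 1 and -6.42, adjusted p = 0.000135 without shSigma replicate 3, and the tumor sphere value -5.0, adjusted p = 8.04e-07 without shSigma replicate 3. Other genes around the pair did not show a loss of this size. Of 18 tested genes within 2 Mb of COL4A5 on either side in adherent cells, 7 were higher and 1 lower (log2 fold changes -0.36 to 6.87, median 0.23). Of 17 in tumor spheres, 9 were higher and 1 lower (-0.32 to 4.86, median 0.27). Over all genes tested, 22.3% were higher and 27.7% lower in adherent cells, and 30.2% and 30.9% in tumor spheres.

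COL4A1 and COL4A2, which form the common basement membrane trimer, behaved differently. COL4A1 had 43.4, 55.3 and 65.7 CPM in adherent shCtrl and 31.4, 32.6 and 26.6 CPM in adherent shSigma cells, with no overlap. It fell in adherent cells (log2 fold change -0.92, SE 0.16, adjusted p = 0.00292). In tumor spheres it was slightly higher with shSigma, at 21.7, 26.9 and 26.4 CPM against 20.6, 19 and 22.6 CPM (0.26, SE 0.10, adjusted p = 0.0455). That call was lost without shCtrl replicate 1 or 2 or shSigma replicate 2 or 3 (adjusted p from 0.0719 to 0.172). COL4A2 had 40.2, 54.3 and 80.1 CPM and 54.3, 65.3 and 39.5 CPM in the adherent groups, which overlapped (-0.18, SE 0.30, adjusted p = 0.643). With the GC-dependent offset its adherent change was -0.45, adjusted p = 0.000421. It rose in tumor spheres, from 32.8, 24.8 and 28 CPM to 44.9, 43.2 and 42.5 CPM (0.61, SE 0.095, adjusted p = 0.000169). The ratio of COL4A1 to COL4A2 in CPM per kilobase of merged exon was 1.28 ± 0.178 (SD, n = 3) in adherent shCtrl cells. It was between 0.756 and 0.964 in the other group means. In the pair of COL4A3 and COL4A4, chains of specialised basement membranes, COL4A4 was lower in shSigma cells and COL4A3 passed the test in neither culture. COL4A4 had 5.11, 6.30 and 6.15 CPM and 3.09, 2.61 and 3.18 CPM in the adherent groups (-1.04, SE 0.14, adjusted p = 0.000808). The tumor spheres had 11.4, 9.27 and 9.92 CPM and 4.84, 6.25 and 4.66 CPM (-0.96, SE 0.14, adjusted p = 0.00011), again lower with shSigma. COL4A3 had 1.19, 1.18 and 1.54 and 1.57, 1.69 and 1.88 CPM in the adherent groups (0.33, adjusted p = 0.178). Its levels in tumor spheres were 6.56, 4.97 and 4.58 and 3.63, 4.66 and 3.87 CPM (-0.40, adjusted p = 0.0576), which passed without shCtrl replicate 2 or 3 or shSigma replicate 2 (from -0.46, adjusted p = 0.044 to -0.52, adjusted p = 0.0423).

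**Figure D2:**
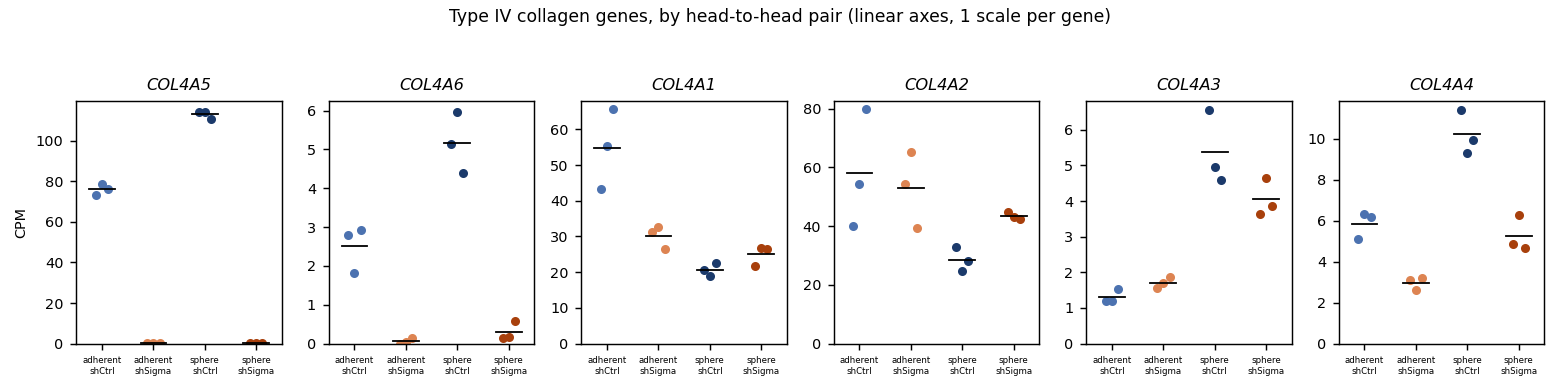
CPM of the 6 type IV collagen genes in each library (points) with the mean of each group (line), on a linear scale of its own for each gene, ordered by head-to-head pair. COL4A5 lies near 0 in all 6 shSigma libraries, at most 0.482 CPM, whereas COL4A1 of the shSigma cells lies below the shCtrl cells in adherent culture only.

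Of the fibril-forming collagens, which build the tension-bearing fibres, 4 were lower and 1 higher among 6 tested in adherent cells, and 6 of 6 were lower in tumor spheres. Among all genes tested, the share called lower was 27.7% in the former (22.3% higher) and 30.9% in the latter. COL1A2 and COL5A1 passed the count filter through their shCtrl level alone and so had to differ. The class counts are therefore descriptions. COL5A1, the chain that nucleates fibrils, had 1.73, 2.75 and 3.90 CPM in adherent shCtrl and 0.190, 0.154 and 0.338 CPM in adherent shSigma cells. In tumor spheres it had 6.38, 4.75 and 5.59 CPM with shCtrl and 0.202, 0.212 and 0.106 CPM with shSigma, again with no overlap. Its log2 fold changes were -3.64, SE 0.42, adjusted p = 0.000342 and -4.95, SE 0.28, adjusted p = 4.16e-08. They rest on few counts, as COL5A1 had 14 in all in adherent shSigma cells and 10 in shSigma tumor spheres. The partner chain COL5A2 fell less, from 7.83, 8.80 and 8.52 CPM to 3.14, 3.69 and 3.04 CPM in adherent cells (-1.41, SE 0.14, adjusted p = 0.000164). Its fall in tumor spheres was from 6.73, 5.79 and 6.50 CPM to 4.38, 4.45 and 3.87 CPM (-0.59, SE 0.13, adjusted p = 0.00232). The ratio of COL5A1 to COL5A2 in CPM per kilobase of merged exon was 0.217 ± 0.0786 and 0.0466 ± 0.0235 in adherent shCtrl and shSigma cells (SD, n = 3). In the tumor spheres it was 0.574 ± 0.0431 and 0.0265 ± 0.00737. The shSigma ratios rest on the same few counts of COL5A1. For type I collagen, the main collagen of stroma, COL1A2 was low throughout, with 1.27, 2.03 and 1.81 CPM against 0.190, 0.205 and 0.193 CPM in adherent cells. Tumor spheres had 1.76, 1.43 and 1.46 CPM against 0.202, 0.0530 and 0 CPM. It fell in both cultures (-3.14, SE 0.31, adjusted p = 0.00017 and -4.06, SE 0.49, adjusted p = 2.16e-05), with 12 and 5 counts in all over the 3 shSigma libraries. COL1A1 had 3.22, 4.65 and 7.73 and 5.09, 5.22 and 3.23 CPM in the adherent groups, which overlapped (-0.25, adjusted p = 0.585, and -0.50, adjusted p = 0.0146 with the GC-dependent offset). In tumor spheres COL1A1 fell from 24.3, 18.7 and 24.9 CPM to 11.8, 14.2 and 9.85 CPM (-0.92, SE 0.15, adjusted p = 0.000434). COL24A1 fell in adherent cells, from 2.0, 1.69 and 1.62 to 0.714, 0.665 and 0.530 CPM (-1.53, SE 0.23, adjusted p = 0.00116). The tumor spheres had 6.85, 7.95 and 6.15 CPM with shCtrl and 1.56, 2.17 and 1.96 CPM with shSigma (-1.88, SE 0.17, adjusted p = 1.91e-06). COL27A1 was the exception of the class, as it rose in adherent cells, from 2.07, 2.37 and 2.84 to 4.85, 5.07 and 3.18 CPM (0.79, SE 0.23, adjusted p = 0.0241). In tumor spheres COL27A1 fell, from 9.36, 7.50 and 10.4 to 4.89, 7.47 and 5.40 CPM (-0.63, SE 0.18, adjusted p = 0.00964). Its adherent call was lost without shSigma replicate 1 (0.76, adjusted p = 0.0553) or replicate 2 (0.73, adjusted p = 0.0538).

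Several collagens that sit on fibrils or form short networks also fell. COL12A1, a fibril-associated collagen that bridges fibrils, was the collagen chain with the highest CPM in adherent shCtrl cells, at 113, 125 and 123 CPM. Per kilobase of merged exon its mean there was 6.37 CPM, below COL6A2 (6.53) and COL4A5 (6.40). COL12A1 fell to 50.8, 50.0 and 58.2 CPM with shSigma (-1.24, SE 0.068, adjusted p = 1.46e-05). The decrease in tumor spheres was from 50.0, 45.2 and 56.1 CPM to 31.1, 33.3 and 33.6 CPM (-0.63, SE 0.086, adjusted p = 6.06e-05). The related COL14A1 had 11.7, 12.1 and 11.4 CPM and 4.71, 3.33 and 4.24 CPM in the adherent groups and 58.2, 55.5 and 56.1 CPM and 12.2, 12.8 and 14.5 CPM in tumor spheres. Its level in shSigma tumor spheres was thus close to that of adherent shCtrl cells, and it was lower in both cultures (-1.58, SE 0.15, adjusted p = 0.00013 and -2.11, SE 0.08, adjusted p = 1.64e-09). COL8A2, a chain of the short-chain network collagen of Descemet's membrane, fell from 5.76, 6.72 and 8.04 CPM to 3.81, 4.30 and 3.66 CPM in adherent cells (-0.86, SE 0.16, adjusted p = 0.0032). In tumor spheres COL8A2 fell from 26.6, 23.5 and 25.7 CPM to 4.74, 3.87 and 3.76 CPM (-2.62, SE 0.11, adjusted p = 4.69e-09), while its partner COL8A1 stayed under 1 CPM. COL16A1 was the fibril-associated chain that rose, to group means of 1.12 and 1.80 CPM from 0.322 and 0.636 CPM (1.73, SE 0.53, adjusted p = 0.0298 and 1.49, SE 0.28, adjusted p = 0.000711). COL9A2 had means of 4.49 CPM in shCtrl and 2.57 CPM in shSigma tumor spheres (-0.80, adjusted p = 0.00391). COL9A3 had 2.90 and 0.523 CPM (-2.46, adjusted p = 1.98e-05), so both were lower there. COL9A2 in adherent cells (-0.15, adjusted p = 0.815) and COL21A1 in either culture (-0.054, adjusted p = 0.783 and 0.24, adjusted p = 0.205) did not pass.

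Type VI collagen is a beaded filament that links cells to the surrounding matrix. Of its chains, COL6A1 was higher in shSigma cells of both cultures, and COL6A2 passed in tumor spheres only. The chains COL6A3, COL6A5 and COL6A6 had group means of at most 0.456 CPM. COL6A1 had 17.8, 23.7 and 39.4 CPM in adherent shCtrl and 103, 112 and 52.9 CPM in adherent shSigma cells. The partner COL6A2 had 17.5, 30.9 and 56.1 CPM and 112, 127 and 47.3 CPM, so that the adherent groups of COL6A1 were separate and those of COL6A2 overlapped. COL6A1 passed the test in adherent cells (1.68, SE 0.40, adjusted p = 0.0151). It did not pass without shCtrl replicate 1 or 2 or shSigma replicate 1 or 2 (adjusted p from 0.0533 to 0.066). COL6A2 did not pass (1.42, SE 0.53, adjusted p = 0.0708), though it did without shCtrl replicate 3 (1.92, adjusted p = 0.0351) or shSigma replicate 3 (1.76, adjusted p = 0.0221). In tumor spheres COL6A1 rose from 100.1, 66.7 and 96.5 CPM to 183, 171 and 155 CPM (0.95, SE 0.14, adjusted p = 0.000278). COL6A2 rose there from 117, 77 and 112 CPM to 186, 161 and 149.5 CPM (0.69, SE 0.15, adjusted p = 0.00268). COL18A1, the precursor of the endostatin fragment, had 17.1, 32.6 and 53.9 CPM and 102, 117 and 40.1 CPM in the adherent groups, with overlap (1.28, SE 0.54, adjusted p = 0.0987, and 1.64, adjusted p = 0.0258 without shSigma replicate 3). In tumor spheres COL18A1 had 64, 39.8 and 55.9 CPM and 201, 153 and 135 CPM (1.61, SE 0.18, adjusted p = 5.16e-05), with no overlap. These 3 genes have transcript GC contents of 63.5%, 66.4% and 67.2%, and with the GC-dependent offset all 3 were higher in adherent shSigma cells (COL6A1 1.35, adjusted p = 3.35e-06; COL6A2 1.03, adjusted p = 0.000163; COL18A1 0.86, adjusted p = 0.0004). They lie close together on chromosome 21 (GRCh38, GENCODE v44: COL18A1 at chr21:45405165-45513720, COL6A1 at chr21:45981770-46005050 and COL6A2 at chr21:46098112-46132848). Of 30 other tested genes within 2 Mb of COL6A1, 18 were higher and none lower in adherent shSigma cells, and their log2 fold changes had a median of 0.55. In tumor spheres 24 of 31 were higher and none lower (median 0.44). Windows of this size around other members varied. Around COL1A2, which fell, 12 of 22 genes were higher and 2 lower in adherent cells (median 0.32). In tumor spheres 16 of its 21 neighbours were higher and 4 lower (median 0.59). Around FN1, which rose, none of 13 were higher and 4 lower in adherent cells, and 2 were higher and 5 lower in tumor spheres. The part of the rise around COL6A1 in the collagen values was not tested.

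Transmembrane collagens differed among themselves. COL17A1, the hemidesmosomal collagen of basal epithelium, had 3.19, 4.14 and 4.73 CPM and 7.04, 8.29 and 6.85 CPM in the adherent groups (0.82, SE 0.17, adjusted p = 0.00595). It rose more in tumor spheres, from 1.99, 1.49 and 1.96 CPM to 11.3, 11.2 and 10.3 CPM (2.58, SE 0.14, adjusted p = 3.89e-08). COL13A1 rose in adherent cells, from 4.18, 4.69 and 6.63 CPM to 16.4, 16.4 and 11.9 CPM (1.47, SE 0.21, adjusted p = 0.00102). In tumor spheres its levels were only 0.527, 1.05 and 0.806 CPM and 1.06, 1.06 and 1.06 CPM (0.40, adjusted p = 0.238). COL25A1 had a mean of 1.13 CPM in adherent shCtrl and at most 0.294 CPM in the other group means (-1.98, SE 0.29, adjusted p = 0.00105 in adherent cells). COL7A1, which forms the anchoring fibrils under epithelia, had 1.46, 3.85 and 4.85 CPM and 1.62, 1.69 and 1.21 CPM in the adherent groups, which overlapped (-1.22, SE 0.44, adjusted p = 0.0607). Without shCtrl replicate 1, its lowest library, the adherent value was -1.53, adjusted p = 0.000596, and with the GC-dependent offset -1.52, adjusted p = 0.000482. In tumor spheres COL7A1 fell from 10.2, 8.77 and 9.47 CPM to 2.62, 3.44 and 1.91 CPM (-1.84, SE 0.18, adjusted p = 3.35e-06). COL28A1 fell in both cultures, from a mean of 3.63 to 0.538 CPM (-2.80, adjusted p = 2.63e-05) and from 3.92 to 0.419 CPM (-3.22, adjusted p = 4.8e-07). COL26A1 fell in tumor spheres, from 2.32 to 0.471 CPM (-2.29, adjusted p = 3.2e-05).

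All 4 adhesive and matricellular glycoproteins that could be tested, FN1, TNC, THBS1 and TGFBI, were higher in shSigma cells in both cultures, beside 22.3% and 30.2% of all genes. The 250 bases before FN1 (minus strand, chr2:215436069-215436318), TNC (minus strand, chr9:115118158-115118407) and THBS1 (plus strand, chr15:39580829-39581078) are shown because these genes rose together, with the same motifs in capitals.
FN1: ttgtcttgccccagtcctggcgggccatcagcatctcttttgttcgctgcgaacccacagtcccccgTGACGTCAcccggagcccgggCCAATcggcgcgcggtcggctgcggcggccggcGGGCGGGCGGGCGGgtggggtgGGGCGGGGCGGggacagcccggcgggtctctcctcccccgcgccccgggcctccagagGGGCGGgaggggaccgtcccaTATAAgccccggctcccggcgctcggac
TNC: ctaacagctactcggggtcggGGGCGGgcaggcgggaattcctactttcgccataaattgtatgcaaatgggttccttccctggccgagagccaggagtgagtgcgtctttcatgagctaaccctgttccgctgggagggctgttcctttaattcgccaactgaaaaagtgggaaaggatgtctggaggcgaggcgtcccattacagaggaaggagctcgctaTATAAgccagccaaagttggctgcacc
THBS1: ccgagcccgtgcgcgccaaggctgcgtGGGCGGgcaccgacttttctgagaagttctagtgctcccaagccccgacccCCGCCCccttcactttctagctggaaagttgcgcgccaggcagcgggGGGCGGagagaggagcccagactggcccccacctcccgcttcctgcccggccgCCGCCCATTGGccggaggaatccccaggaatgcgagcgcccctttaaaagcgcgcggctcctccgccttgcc
FN1 and TNC each held a TATAA match, present in 18.9% of all promoters of this length, and FN1 also held TGACGTCA, present in 1.65%. GGGCGG matched 6 times before FN1, 4 times before THBS1 and 1 time before TNC, and TGANTCA, present in 6.57% of promoters, matched in none of the 3. The 250 bases before TGFBI, not shown, held 3 GGGCGG matches and no match to the other motifs.

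Fibronectin had 31.5, 30.2 and 32.4 CPM in adherent shCtrl and 63.6, 64.1 and 69 CPM in adherent shSigma cells, a rise without overlap (1.0, SE 0.065, adjusted p = 2.82e-05). Its rise in tumor spheres was from 39.7, 33.9 and 36.5 CPM to 169, 178 and 193 CPM, a 4.89-fold difference (2.29, SE 0.074, adjusted p = 4.34e-10). Fibronectin forms the provisional matrix onto which collagen assembles. Tenascin-C, a glycoprotein of remodelling and tumor matrix that modulates cell adhesion, had 18.6, 20.8 and 22.5 CPM and 115, 115 and 115 CPM in the adherent groups (2.42, SE 0.081, adjusted p = 2.94e-06). In tumor spheres TNC rose from 13.1, 10.4 and 10.9 CPM to 86.9, 98.7 and 98.7 CPM, 8.26-fold (3.05, SE 0.095, adjusted p = 3.49e-10), the largest rise among the tested members there. THBS1, thrombospondin 1, an activator of latent TGF-beta, rose modestly in adherent cells, from 63.3, 80.7 and 80.9 CPM to 110.4, 108 and 116 CPM (0.51, SE 0.093, adjusted p = 0.00295). In tumor spheres THBS1 rose from 26.1, 24.5 and 26.3 CPM to 166, 177 and 173 CPM (2.74, SE 0.062, adjusted p = 2.69e-11). TGFBI, a collagen-binding protein induced by TGF-beta, had 146, 139.8 and 140.4 CPM and 172, 171 and 189.7 CPM in the adherent groups (0.26, SE 0.06, adjusted p = 0.00936). Its levels in tumor spheres were 25.9, 27.4 and 27.3 CPM and 51.8, 72.6 and 59.4 CPM (1.19, SE 0.11, adjusted p = 9.11e-06). No shSigma library overlapped with a shCtrl library of the same culture for any of these 4 genes. The fibrillin FBN1, which forms microfibrils, went the other way in adherent cells, from 5.76, 6.13 and 6.19 CPM to 2.67, 2.30 and 3.23 CPM (-1.20, SE 0.14, adjusted p = 0.000403). In tumor spheres FBN1 had overlapping levels, 1.93, 2.21 and 2.07 CPM and 1.61, 2.49 and 2.44 CPM (0.066, adjusted p = 0.798). Summed over the 9 glycoprotein and fibrillin members, the level was 276 ± 8.61 CPM in adherent shCtrl and 473 ± 17.2 CPM in adherent shSigma cells (SD, n = 3). The tumor spheres had 103 ± 4.09 and 510 ± 30.6 CPM.

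**Figure D3:**
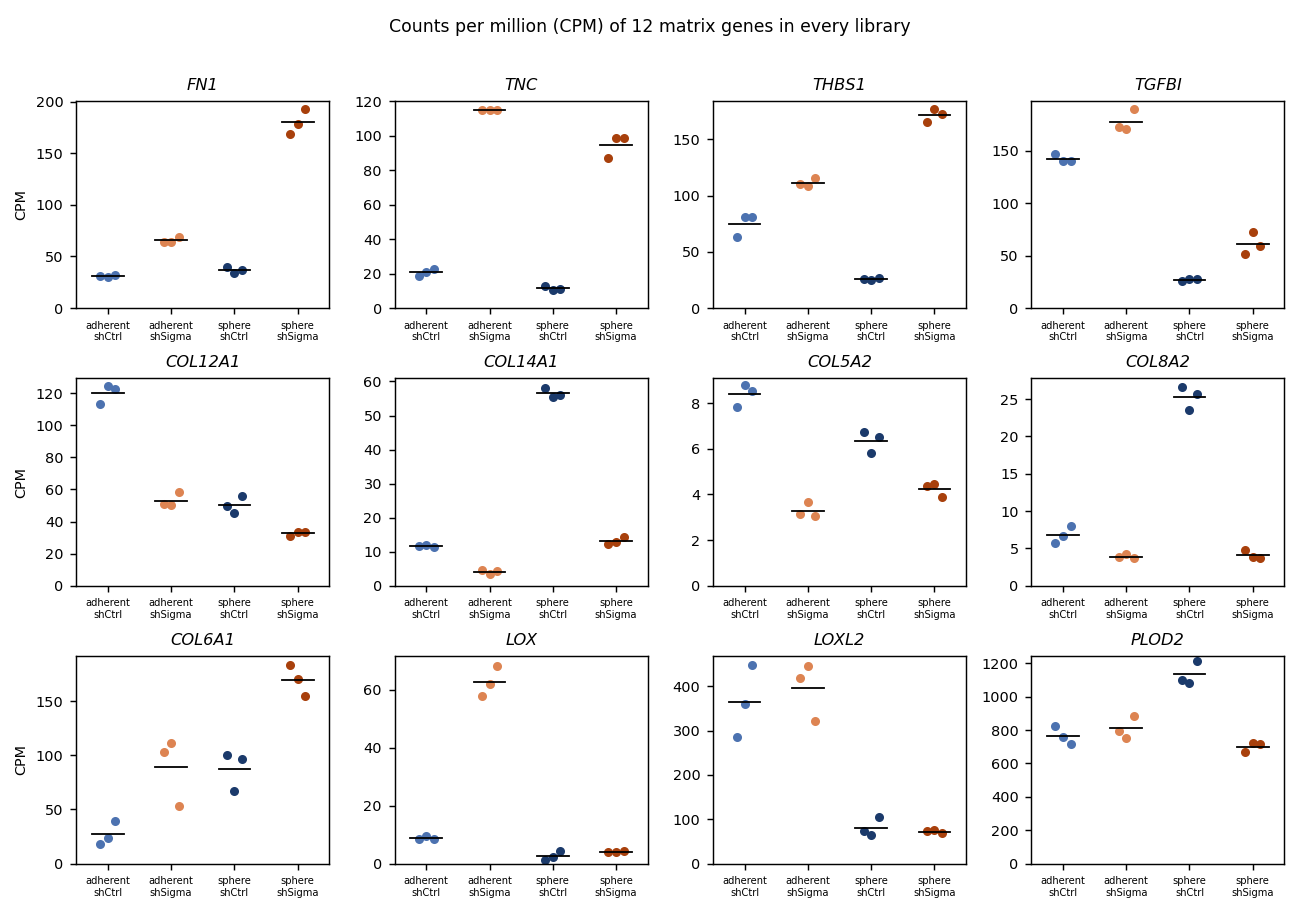
CPM of 12 members in every library (points) with the group mean (line), on a linear axis from 0 for each gene. FN1, TNC, THBS1 and TGFBI are higher in shSigma cells of each culture, COL12A1, COL14A1, COL5A2 and COL8A2 are lower, and the high level of LOX is found in the 3 adherent shSigma libraries.

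Enzymes were the 4 most abundant members per length, while others of the class were low. By CPM per kilobase of merged exon, averaged over the 4 groups, P4HA1 (65), PLOD2 (58.8), LOXL2 (38.1) and PLOD1 (31.3) led all members, followed by COL6A2 (18.6). The summed level of all 11 enzymes was 1629 ± 55.6 CPM in adherent shCtrl and 1788 ± 10.5 CPM in adherent shSigma cells. It was 1772 ± 144 and 1246 ± 39.3 CPM in the tumor spheres. PLOD2 alone had means of 1133 and 701 CPM there, and not every enzyme fell, as the values below show. LOX, the founding crosslinking oxidase of collagen and elastin, had 8.56, 9.51 and 8.52 CPM in adherent shCtrl and 58, 62.1 and 68.3 CPM in adherent shSigma cells, with no overlap. This 6.77-fold rise was the largest among the tested members in adherent culture (2.76, SE 0.091, adjusted p = 2.94e-06). In tumor spheres LOX had 1.40, 2.21 and 4.48 CPM and 3.88, 3.92 and 4.45 CPM, with overlap (0.56, SE 0.33, adjusted p = 0.166). Without shCtrl replicate 3, its highest control library, the log2 fold change was 1.17, adjusted p = 0.00122. LOXL4 fell in both cultures, from 3.38, 3.68 and 4.77 to 1.86, 1.69 and 1.74 CPM (-1.22, SE 0.18, adjusted p = 0.000968) in adherent cells. In tumor spheres LOXL4 had 5.62, 4.69 and 6.30 and 4.08, 2.81 and 3.12 CPM (-0.73, SE 0.17, adjusted p = 0.00328). LOXL3 fell in tumor spheres, from 6.15, 5.68 and 5.89 to 4.13, 3.76 and 4.34 CPM (-0.54, SE 0.13, adjusted p = 0.00324). The adherent groups had 3.26, 3.89 and 3.94 and 3.09, 3.22 and 2.56 CPM (-0.38, adjusted p = 0.0945, and -0.47, adjusted p = 0.00915 with the GC-dependent offset). LOXL2 had 285, 359 and 449 CPM and 418, 446 and 322 CPM in adherent cells (0.066, adjusted p = 0.81). It had 74.2, 64.2 and 105 CPM and 74, 74.7 and 68.2 CPM in tumor spheres (-0.17, adjusted p = 0.365), with overlap in each culture. LOXL1 stayed between 1.24 and 1.55 CPM in the group means and passed in neither culture (0.16, adjusted p = 0.714 and -0.086, adjusted p = 0.75).

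Of the prolyl 4-hydroxylases, which stabilise the collagen triple helix, P4HA2 and P4HA3 were higher in adherent shSigma cells, and P4HA1 and P4HA2 lower in shSigma tumor spheres. P4HA1 had 219, 201 and 195 CPM and 235, 232 and 267 CPM in adherent cells (0.19, SE 0.077, adjusted p = 0.0779), which passed without shCtrl replicate 1 (0.30, adjusted p = 0.0269) or shSigma replicate 2 (0.29, adjusted p = 0.0468). It fell in tumor spheres from 194, 209.9 and 249 CPM to 134, 139 and 139 CPM (-0.67, SE 0.083, adjusted p = 4.52e-05). P4HA2 rose from 65.5, 59.5 and 62 to 77.8, 75.8 and 90.3 CPM in adherent cells (0.32, SE 0.077, adjusted p = 0.0109). In tumor spheres P4HA2 fell from 69.4, 73.6 and 85.3 to 65.2, 68 and 65.4 CPM (-0.21, SE 0.077, adjusted p = 0.0358). The latter call was lost without shCtrl replicate 3 or any 1 shSigma library (adjusted p from 0.0628 to 0.206). P4HA3 rose in adherent cells, from 5.99, 5.62 and 6.23 to 8.42, 10.6 and 12 CPM (0.73, SE 0.14, adjusted p = 0.00376). Tumor spheres had 7.61, 9.27 and 9.72 and 9.02, 9.80 and 9.0 CPM of P4HA3 (0.057, adjusted p = 0.696). Among the lysyl hydroxylases, which prepare the lysines for crosslinking, PLOD2 showed the same contrast between cultures. PLOD2 had 824, 757 and 719 CPM and 795, 752 and 886 CPM in adherent cells (0.015, SE 0.085, adjusted p = 0.9). In tumor spheres PLOD2 fell from 1102, 1081 and 1216 CPM to 666, 723 and 714 CPM (-0.70, SE 0.065, adjusted p = 2.46e-06). With the GC-dependent offset P4HA1 and PLOD2 passed as higher in adherent cells (0.33, adjusted p = 4.34e-05 and 0.22, adjusted p = 0.000739). PLOD1 fell in adherent cells, from 148, 173 and 198 to 127, 129 and 109 CPM (-0.56, SE 0.12, adjusted p = 0.0069). Tumor spheres had 199, 179 and 208 and 167, 188 and 174 CPM of PLOD1 (-0.15, adjusted p = 0.0732, and -0.26, adjusted p = 0.00136 with the GC-dependent offset). That value passed without shCtrl replicate 2 (-0.22, adjusted p = 0.00489) or shSigma replicate 2 (-0.20, adjusted p = 0.0471). PLOD3 rose in tumor spheres, from 46.7, 39.1 and 45.6 to 75.9, 69.5 and 67.2 CPM (0.69, SE 0.081, adjusted p = 1.67e-05). Its adherent groups, 23.1, 33.8 and 43.3 and 58.1, 64.6 and 39.9 CPM, overlapped (0.65, adjusted p = 0.104) but passed with the GC-dependent offset (0.38, adjusted p = 0.000445) or without shSigma replicate 3 (0.85, adjusted p = 0.0316).

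The difference of the knockdown effect between cultures was tested in 1 fit of all 12 libraries. Of 44 members tested, 10 had a higher and 11 a lower knockdown effect in tumor spheres than in adherent cells, beside 28.4% of all 14175 genes (12.7% higher and 15.6% lower). With a difference beyond 1 on the log2 scale, 6 were higher and 5 lower, beside 8.54% of all genes (2.50% higher and 6.04% lower). All 4 tested glycoproteins had the higher effect in tumor spheres. The differences were 2.17, SE 0.12, adjusted p = 3.82e-08 for THBS1 and 1.23, SE 0.11, adjusted p = 1.71e-06 for FN1. They were 0.87, SE 0.14, adjusted p = 0.000367 for TGFBI and 0.57, SE 0.13, adjusted p = 0.00502 for TNC, and FBN1 followed with 1.21, SE 0.26, adjusted p = 0.00296. Among the 11 enzymes 5 had the lower effect and none the higher, beside 15.6% and 12.7% of all genes. LOX had -2.25, SE 0.38, adjusted p = 0.00136 and P4HA1 -0.92, SE 0.13, adjusted p = 0.000102. PLOD2 had -0.77, adjusted p = 0.000178, P4HA3 -0.74, adjusted p = 0.0115 and P4HA2 -0.58, adjusted p = 0.00278. The LOX value moved to -1.63, adjusted p = 0.000199 without shCtrl tumor sphere replicate 3. Among the collagens, COL17A1, COL4A1, COL5A2 and COL12A1 had the more positive effect in tumor spheres, and COL8A2, COL4A5, COL27A1, COL13A1, COL4A3 and COL14A1 the more negative one. COL25A1 was also called higher, but it had 10 and 11 counts in all in the tumor sphere groups and was not tested there, so its interaction restates its adherent fall. The call for COL4A5 was lost without shSigma tumor sphere replicate 3 (-1.22, adjusted p = 0.0518), and that for COL14A1 without adherent shSigma replicate 1 (-0.45, adjusted p = 0.0641). Those for COL13A1 (adjusted p from 0.0634 to 0.172) and COL4A3 (adjusted p from 0.058 to 0.117) were each lost without any 1 of 9 libraries. Without 1 adherent shCtrl library, 3 further members passed: COL4A2 (1.0, adjusted p = 0.0418) and PLOD1 (0.51, adjusted p = 0.0178) without replicate 1, and COL1A1 (-1.07, adjusted p = 0.0224) without replicate 3. With the GC-dependent offset these 3 passed as well (COL4A2 0.84, adjusted p = 7.23e-06, PLOD1 0.49, adjusted p = 0.000179 and COL1A1 -0.61, adjusted p = 0.0209). So did COL6A1 (-0.67, adjusted p = 0.0012) and COL6A2 (-0.69, adjusted p = 0.00904), both lower, whereas the call of COL13A1 was lost (-1.08, adjusted p = 0.0548).

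The culture itself was compared within each line, and these comparisons share libraries with those of the hairpins. In shCtrl cells 44 members were tested between tumor spheres and adherent cells, of which 21 were higher and 13 lower in tumor spheres, beside 53.7% of all 13800 genes (27.4% higher and 26.3% lower). Beyond a log2 fold change of 1 there were 13 higher and 11 lower, beside 15.8% (10.8% higher and 4.96% lower). In shSigma cells 37 members were tested, of which 15 were higher and 9 lower, beside 47.1% of all 13622 genes (21.9% higher and 25.2% lower). Beyond a log2 fold change of 1 these were 6 and 4, beside 9.32% (5.76% higher and 3.56% lower). LOXL2, an oxidase among the most abundant members, was lower in tumor spheres of both lines (log2 fold change -2.17, SE 0.23, adjusted p = 0.000332 in shCtrl and -2.43, SE 0.15, adjusted p = 9.47e-05 in shSigma cells). LOX was lower as well (-1.69, SE 0.35, adjusted p = 0.00619 and -3.92, SE 0.091, adjusted p = 3.81e-07). Its shCtrl value was -2.32, adjusted p = 0.0001 without tumor sphere replicate 3. TGFBI was lower in both lines (-2.41, SE 0.063, adjusted p = 1.44e-07 and -1.51, SE 0.12, adjusted p = 0.000144), and so was COL13A1 (-2.69, SE 0.29, adjusted p = 0.000148 and -3.79, SE 0.20, adjusted p = 8.17e-06). COL12A1 (-1.25, adjusted p = 1.89e-05 and -0.67, adjusted p = 0.000201) and TNC (-0.85, adjusted p = 0.000759 and -0.26, adjusted p = 0.0142) complete the members lower in tumor spheres of both lines. The TNC call in shSigma cells was lost without adherent replicate 1 (-0.25, adjusted p = 0.0527).

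Several collagens were higher in tumor spheres of each line. COL14A1 had log2 fold changes of 2.27, SE 0.076, adjusted p = 5.01e-07 in shCtrl and 1.70, SE 0.14, adjusted p = 8.25e-05 in shSigma cells. COL1A1 had 2.12, SE 0.31, adjusted p = 0.00129 and 1.43, SE 0.23, adjusted p = 0.00232. COL24A1 (1.97, adjusted p = 4.16e-05 and 1.59, adjusted p = 0.00148) and COL4A3 (2.03, adjusted p = 0.000111 and 1.26, adjusted p = 0.0007) were higher in both as well. The same held for COL4A4 (0.80, adjusted p = 0.00184 and 0.85, adjusted p = 0.00421) and COL9A2 (2.08, adjusted p = 0.003 and 1.40, adjusted p = 0.00527). With the GC-dependent offset the COL9A2 values were 1.28, adjusted p = 0.000346 and 0.69, adjusted p = 0.0226. The culture effect differed between lines by the interaction for COL8A2 (-1.81) and COL4A1 (1.13). COL8A2 was higher in tumor spheres of shCtrl cells (1.88, SE 0.14, adjusted p = 1.98e-05) and had 0.094, adjusted p = 0.629 in shSigma cells. With the GC-dependent offset these values were 1.29, adjusted p = 5.35e-07 and -0.39, adjusted p = 0.0483. COL4A1 was lower in tumor spheres of shCtrl cells (-1.40, SE 0.16, adjusted p = 0.000252) and had -0.25, adjusted p = 0.124 in shSigma cells, or -0.35, adjusted p = 0.00613 with the offset and -0.36, adjusted p = 0.00243 without adherent replicate 3. In THBS1 and COL17A1 the direction turned. THBS1 was lower in tumor spheres of shCtrl cells (-1.55, adjusted p = 1.77e-05) and higher in those of shSigma cells (0.65, adjusted p = 4.42e-05). COL17A1 likewise had -1.14, adjusted p = 0.00247 and 0.59, adjusted p = 0.00519. FN1 had 0.23, adjusted p = 0.0531 in shCtrl cells (0.28, adjusted p = 0.0409 without tumor sphere replicate 2 and 0.39, adjusted p = 0.00247 with the offset) and 1.48, adjusted p = 2.66e-06 in shSigma cells. P4HA1 had 0.085, adjusted p = 0.486 in shCtrl cells (0.25, adjusted p = 0.029 with the offset) and was lower in tumor spheres of shSigma cells (-0.81, adjusted p = 2.48e-05). PLOD2 was higher in tumor spheres of shCtrl cells (0.56, adjusted p = 0.000696) and lower in those of shSigma cells (-0.19, adjusted p = 0.0379), the latter not with the GC-dependent offset (-0.052, adjusted p = 0.298). The shSigma call of PLOD2 was also lost without adherent replicate 1 or any 1 tumor sphere library (adjusted p from 0.0622 to 0.127). The COL6A1 call in shSigma cells (0.94, adjusted p = 0.0477) was lost without any of 4 libraries (adjusted p from 0.0825 to 0.116). That of COL7A1 (0.84, adjusted p = 0.0324) was lost with the offset (0.12, adjusted p = 0.686) and without adherent replicate 1 or tumor sphere replicate 1 or 2 (adjusted p from 0.0637 to 0.112).

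**Figure D4:**
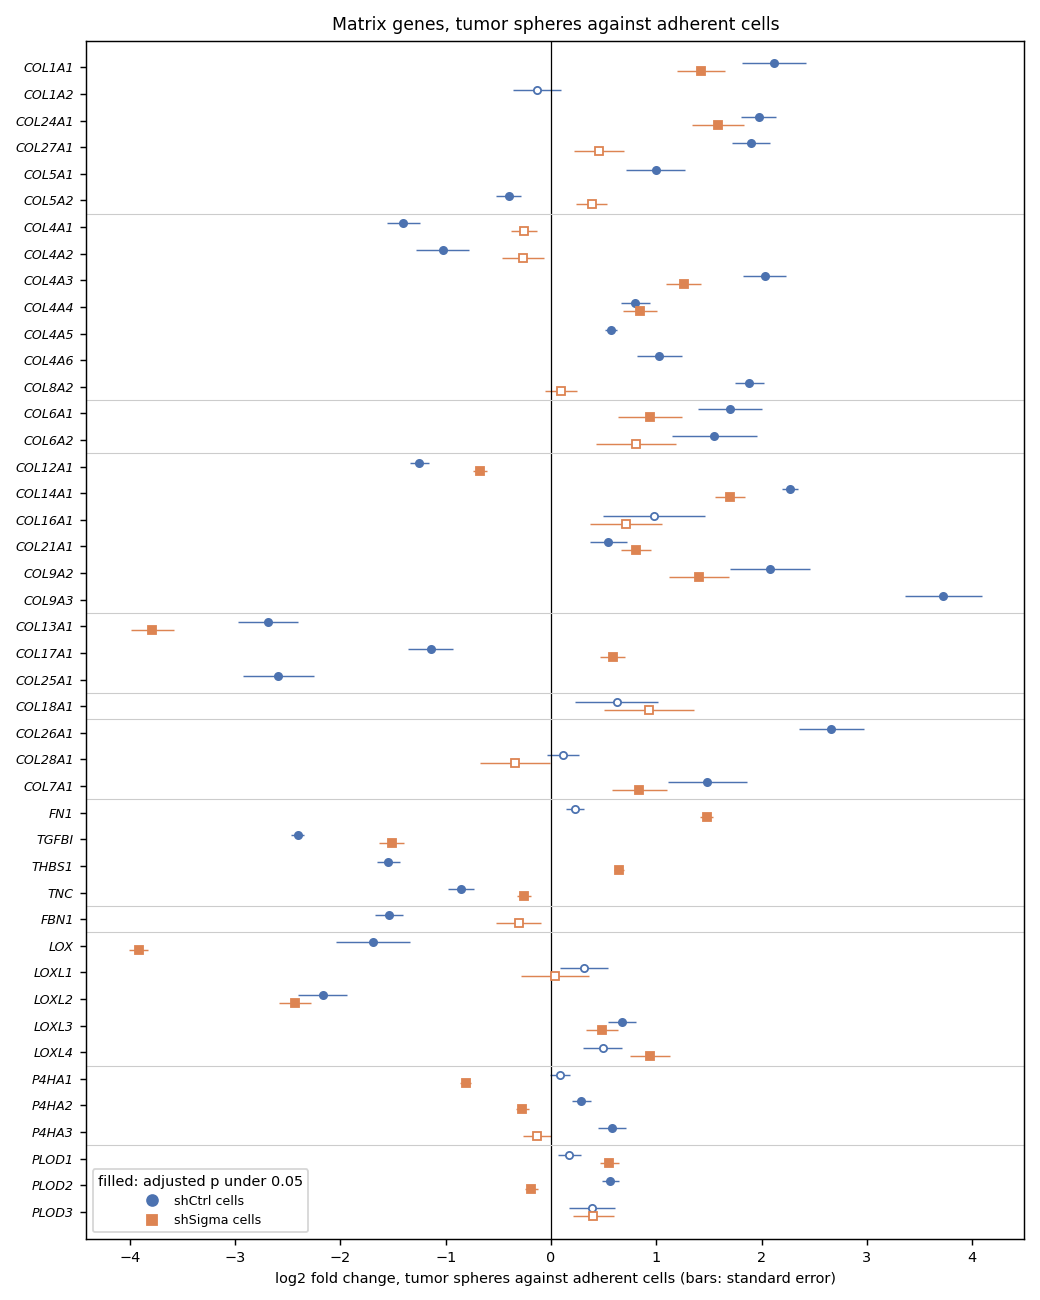
Log2 fold change of tumor spheres against adherent cells for each tested member in shCtrl (circles) and shSigma cells (squares); bars are standard errors and filled symbols have an adjusted p under 0.05. LOXL2, LOX and TGFBI lie left of 0 in each line, and THBS1 and COL17A1 lie left of 0 in shCtrl and right of 0 in shSigma cells.

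Summed over the 44 collagen chains, the level was 479 ± 96.4 CPM in adherent shCtrl and 465 ± 132 CPM in adherent shSigma cells (SD, n = 3). The tumor spheres had 642 ± 70.5 and 677 ± 64.9 CPM. The sums of the hairpin groups overlapped within each culture. In adherent cells replicate 3 had the highest shCtrl sum (578 CPM) and the lowest shSigma sum (315 CPM), and the GC-dependent offset was not applied to the sums. The most abundant chains weigh most in them. COL6A1, COL6A2 and COL18A1 had means of 170, 165 and 163 CPM in shSigma tumor spheres.

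Other genes of matrix production were read from 4 further lists. Their counts stand beside 22.3% of all genes higher and 27.7% lower in adherent cells, 50.0% in all, and beside 30.2% and 30.9% in tumor spheres, 61.1% in all. Their median log2 fold changes over the tested genes stand beside -0.014 and 0.0015 for all genes in adherent cells and tumor spheres. Of the procollagen folding, transport and processing list, 5 were higher and 7 lower of 25 tested in adherent cells, and 11 higher and 4 lower of 26 in tumor spheres, in all a share near that of all genes in each culture. The median was -0.078 for adherent culture and 0.22 for tumor spheres. BMP1, the procollagen C-proteinase, rose in adherent cells (36.8 ± 9.11 to 148 ± 27.5 CPM; 1.95, adjusted p = 0.000902) and P3H2, a prolyl 3-hydroxylase, fell (47.4 ± 2.50 to 24.8 ± 2.35 CPM; -1.0, adjusted p = 8.93e-05). In tumor spheres COLGALT2, which adds galactose to hydroxylysine, rose (4.48 ± 0.205 to 17.7 ± 0.478 CPM; 1.97, adjusted p = 2.1e-08) and FKBP10, a collagen chaperone, fell (252 ± 22.9 to 91.6 ± 2.56 CPM; -1.46, adjusted p = 9.91e-09). Of the collagen and fibronectin receptors, 5 were higher and 2 lower of 11 tested in adherent cells, and 6 higher and 2 lower of 10 in tumor spheres, and the medians were 0.41 for adherent culture and 0.35 for tumor spheres. The integrin subunits ITGB3 (2.18 ± 0.331 to 14.2 ± 0.881 CPM; 2.63, adjusted p = 1.07e-05) and ITGA1 (17.8 ± 0.687 to 48 ± 4.52 CPM; 1.37, adjusted p = 1.79e-05) rose in adherent cells. In tumor spheres ITGA2, of the collagen-binding integrin of epithelia, fell (239 ± 15.6 to 47.3 ± 4.83 CPM; -2.34, adjusted p = 9.14e-10), while ITGA1 rose (18.3 ± 1.57 to 28 ± 1.40 CPM; 0.61, adjusted p = 7.21e-05).

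The list of TGF-beta signalling and its matrix targets had 1 higher and 5 lower of 12 tested in adherent cells, and 10 higher and none lower of 12 in tumor spheres. Its median was -0.036 for adherent culture and 0.61 for tumor spheres. In the interaction 5 of its 12 genes were higher and none lower, beside 12.7% and 15.6% of all genes. In adherent cells the matricellular gene CCN1 fell (705 ± 11.7 to 279 ± 16.7 CPM; -1.40, adjusted p = 8.16e-06) and the inhibitory SMAD7 rose (4.22 ± 0.606 to 8.71 ± 0.855 CPM; 0.98, adjusted p = 0.00108). In tumor spheres CCN2, connective tissue growth factor, rose (7.30 ± 0.821 to 33.1 ± 4.14 CPM; 2.17, adjusted p = 3.81e-08), as did the ligand TGFB2 (2.78 ± 0.347 to 10.1 ± 1.82 CPM; 1.85, adjusted p = 2.02e-06). Of the other fibre-associated matrix proteins, 5 were higher and 3 lower of 13 tested in adherent cells, and 7 higher and 4 lower of 14 in tumor spheres, with medians of 0.49 for adherent culture and 0.54 for tumor spheres. The fibulin EFEMP1 (62 ± 3.43 to 356 ± 21.7 CPM; 2.46, adjusted p = 1.97e-06) and the basement membrane proteoglycan perlecan, HSPG2 (41 ± 24 to 183 ± 87.9 CPM; 2.13, adjusted p = 0.0269), rose in adherent cells. In tumor spheres HSPG2 rose (28.3 ± 9.81 to 114 ± 3.36 CPM; 2.0, adjusted p = 2.58e-05) and THBS4 fell (5.0 ± 0.296 to 0.797 ± 0.0577 CPM; -2.64, adjusted p = 2.03e-07). The values after ± in this and the preceding paragraph are SDs of 3 libraries, and the p-values are adjusted over all genes tested.

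Exons of 19 of the 64 members overlap those of another gene in the count table, among them LOX (SRFBP1), THBS1 (FSIP1), TNC (DELEC1), COL18A1 (SLC19A1) and PLOD3 (ZNHIT1), each on the opposite strand, and LOXL2 (ENTPD4) on the same strand. The strand setting of the counting was not given in the sources used here, so the counts of these genes are less certain.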

How the data were processed

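RNA of 12 DU145 cultures was sequenced as single-end reads on an Illumina instrument after a directional poly(A) library preparation. Per the labels and the submitters' processing notes, the authors aligned reads to GRCh38.p12 and quantified genes with STAR 2.6.1c; the annotation and strand setting were not given in the sources used here. The deposited values are raw read counts per gene, without normalization. Symbols and exon lengths came from GENCODE v44 (26153 of 28747 identifiers matched), promoter sequences from RefSeq.

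Counts were tested with edgeR 4.0.16 in R 4.3.3 (TMM, filterByExpr with minimum count 10, robust quasi-likelihood, two-sided). Each pairwise comparison was fitted on the libraries of its own groups, and the interaction on all 12 libraries. Every fit covered all genes of the table that passed the filter, with p-values adjusted across them (Benjamini-Hochberg), calling at an adjusted p under 0.05. CPM used TMM library sizes over all 12 libraries. The pipeline was tested on simulated counts. With 3 libraries against 3, an exact permutation test of a single value cannot go below p = 0.1, so none was used. Alternatives were DESeq2 1.42.0, its size factors, other count filters, 1 joint fit, a replicate block, omission of each library, and a GC-dependent offset.

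Genes with values per library were those with at least 5 CPM in the highest group and an absolute log2 fold change over 1 with an adjusted p under 0.05 (knockdown, interaction or both culture comparisons), the 5 highest per kilobase, partner chains and all enzymes; other members are named where a class is described. From each further list, up to 2 called genes per culture were named, those of largest change with at least 5 CPM. The members and lists were chosen with earlier results of these data known. The authors' own comparisons were not used. The check of the hairpin's target is not reported here.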

Additional observations from a re-analysis of the deposited data

Results flagged for a closer look

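For 21 members the effect of the hairpin differed between tumor spheres and adherent cells by the interaction test, with an adjusted p under 0.05. The log2 differences below are the effect in tumor spheres minus that in adherent cells. Among the glycoproteins and the fibrillin they were 2.17 for THBS1, 1.23 for FN1, 1.21 for FBN1, 0.87 for TGFBI and 0.57 for TNC. Among the collagens with a more positive effect in tumor spheres they were 1.71 for COL17A1, 1.13 for COL4A1, 0.77 for COL5A2 and 0.55 for COL12A1. Among those with a more negative effect they were -1.81 for COL8A2, -1.68 for COL4A5, -1.47 for COL27A1, -1.12 for COL13A1, -0.79 for COL4A3 and -0.59 for COL14A1. Among the enzymes they were -2.25 for LOX, -0.92 for P4HA1, -0.77 for PLOD2, -0.74 for P4HA3 and -0.58 for P4HA2. COL25A1 also passed, at 1.98, but its tumor sphere groups held 10 and 11 counts in all and were not tested, so that its value restates the fall in adherent cells. COL4A5 had 28 and 12 counts in all in the adherent and tumor sphere shSigma groups. The calls of COL4A5, COL14A1, COL13A1 and COL4A3 were each lost when certain single libraries were left out. That of COL13A1 was also lost with the GC-dependent offset.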

How the results depend on the processing

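The calls kept their direction under DESeq2, other size factors, other count filters, 1 joint fit and the omission of any library for the members named. With the GC-dependent offset, chosen after seeing the data, 5 values changed sign and passed as lower in tumor spheres: in shCtrl cells COL18A1 (log2 fold change -0.33), LOXL1 (-0.72) and PLOD1 (-0.23), and in shSigma cells COL8A2 (-0.39) and LOXL1 (-0.88). None had passed before. The offset gave 17 members higher and 20 lower in adherent cells and 12 and 23 in tumor spheres after knockdown. Requiring an absolute log2 fold change over 1 left 6 members higher in adherent cells, 7 higher and 11 lower in tumor spheres, 13 higher for tumor spheres against adherent shCtrl cells, 6 higher and 4 lower against adherent shSigma cells, and 6 and 5 in the interaction.

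Replicate numbers showed no steady pairing. Deviations of same-numbered libraries correlated at -0.57, -0.017 and -0.82 for the adherent hairpin groups and between -0.083 and 0.053 for the tumor spheres. Between cultures they correlated at -0.43, -0.057 and 0.23 in shCtrl and at 0.27, -0.036 and 0.38 in shSigma cells. The deviations were taken from means of only 3 libraries, so these values cannot settle whether the cultures were paired. With the replicate number as a block, 7 members were higher in adherent cells instead of 12. Leaving out 1 library at a time gave 9 to 15 members higher and 16 to 17 lower in adherent cells, 11 to 13 and 21 to 24 in tumor spheres, 17 to 24 and 11 to 14 between cultures of shCtrl cells, 12 to 17 and 7 to 11 between those of shSigma cells, and 9 to 12 and 8 to 13 in the interaction.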
